A study of Mus musculus with 192 samples.

Results

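Epididymal white adipose tissue (eWAT) of mice kept on the ground was compared between Nrf2 knockout and wild-type animals by RNA sequencing. Of the 192 samples in the series, 12 were chosen by their labels alone, as eWAT of the ground control, and they came from 6 Nrf2-KO mice (GC_KO) and 6 WT mice (GC_WT). The whole series covers 9 tissues of flown and ground mice of both genotypes. All 12 animals were male C57BL/6 mice given an age of 12 weeks, housed singly on the ground in the same kind of cage unit that was used in orbit. The methods give this age for flight mice ready for launch. Ground tissue was taken after about a month of the experiment, and the age at dissection is not stated. The GC_KO mice carried the germline Nrf2 knockout allele Nfe2l2tm1Ymk, the GC_WT mice did not, and the labels name no other allele and no drug for either group. The methods of the study describe a ketamine and xylazine challenge for Nrf2-KO mice only, used to leave out animals with an intrahepatic shunt. They give the ground mice as free of such shunts. Whether the GC_KO mice received these drugs is not stated for the ground experiment, so the groups may differ in drug exposure and selection. A germline knockout acts in every cell of the animal, so the comparison does not isolate the adipocyte. The methods give total RNA of the tissue and do not say which part of the fat pad was used. Fewer cells of a type cannot be told apart from less RNA per cell. Nothing in the labels ties any 2 of these libraries to the same animal, and each was treated as 1 mouse.

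Nrf2, encoded by Nfe2l2, is a transcription factor of the cap'n'collar family. Keap1 holds it at a low level until electrophiles or oxidants modify Keap1, after which Nrf2 accumulates, pairs with a small Maf protein and binds antioxidant response elements near genes for glutathione metabolism, drug conjugation, NADPH supply and iron storage. Epididymal fat is a visceral depot made mostly of lipid-filled adipocytes, together with preadipocytes, endothelial cells, macrophages and a mesothelial covering. It stores triglyceride, releases fatty acids and secretes adipokines.

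The element that Nrf2 and small Maf proteins are known to bind contains the letters TGACNNNGC. RefSeq promoter windows of GRCm38.p6, from 250 bases before to 50 after each gene start, were searched for these letters on both strands. They were found in 12.4% of all 32851 windows and for 16.9% of the 11105 tested symbols that had a window. Of 40 genes named below as members of Nrf2-related lists or as the largest changes, 25 had a window, and 9 of these 25 held the letters (36.0%). A longer form, the same letters followed by A, which matches a subset of these, was found in 3.04% of windows and for 4 of the 25 genes. These were Col6a5, Gsta3, Txnrd1 and Htatip2. Of the matching genes, Col6a5 was higher in GC_KO. Its stretch and those of Capza1 and Abcc4, both lower in GC_KO, are not shown. The stretches below are shown because their genes carry the results below, namely the knocked-out gene itself, glutathione transferases, a thioredoxin reductase, an oxidoreductase and the small Maf partner. All are written on the strand of the gene, and capitals mark the matching letters, which are the reverse complement where the match is on the opposite strand. Such a match describes the letters of the window and is not evidence of binding. The stretches lie at chr2:75704865-75704913 (minus strand) for Nfe2l2, chr1:21240434-21240502 (plus) for Gsta3, chr6:138140441-138140509 (plus) for Mgst1, chr10:82859084-82859152 (plus) for Txnrd1, chr7:49759433-49759501 (plus) for Htatip2 and chr11:120633731-120633797 (minus) for Mafg.
Nfe2l2: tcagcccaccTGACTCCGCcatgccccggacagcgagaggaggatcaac
Gsta3: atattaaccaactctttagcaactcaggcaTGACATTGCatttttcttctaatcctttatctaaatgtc
Mgst1: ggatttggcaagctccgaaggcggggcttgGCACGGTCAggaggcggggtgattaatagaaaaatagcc
Txnrd1: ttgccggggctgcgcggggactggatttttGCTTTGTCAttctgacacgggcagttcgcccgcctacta
Htatip2: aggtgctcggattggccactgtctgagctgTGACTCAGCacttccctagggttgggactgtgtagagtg
Mafg: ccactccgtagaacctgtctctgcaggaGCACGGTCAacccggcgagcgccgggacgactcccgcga

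The ground eWAT libraries were of nearly equal depth, with 15692836 to 16046347 expected counts in GC_KO and 15646951 to 15995092 in GC_WT. No 2 libraries were identical, and Pearson's r between the 66 pairs of libraries on the log scale lay between 0.964 and 0.987. Adipocyte markers were abundant in every library, with the summed level of 5 marker genes between 27900 and 38000 TPM (the relative transcript level from RSEM, corrected for transcript length) in GC_KO and between 35000 and 44300 TPM in GC_WT. Some libraries stood apart in transcripts of other cell types. Transcripts of a 13-gene hepatocyte list summed to 473 TPM or more in 3 GC_KO mice (mouse 9 at 1518, mouse 1 at 745 and mouse 2 at 473) and in 1 GC_WT mouse (mouse 10 at 739), and to between 22.9 and 190 TPM in the other 8. Epididymis and testis transcripts summed to 193 TPM in GC_KO mouse 11 and to at most 4.63 TPM elsewhere. T and B cell genes summed to 47.6 TPM in GC_WT mouse 10 and 26.1 TPM in GC_WT mouse 7, against 6.04 to 12.8 TPM in the other 10.

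**Figure D1:**
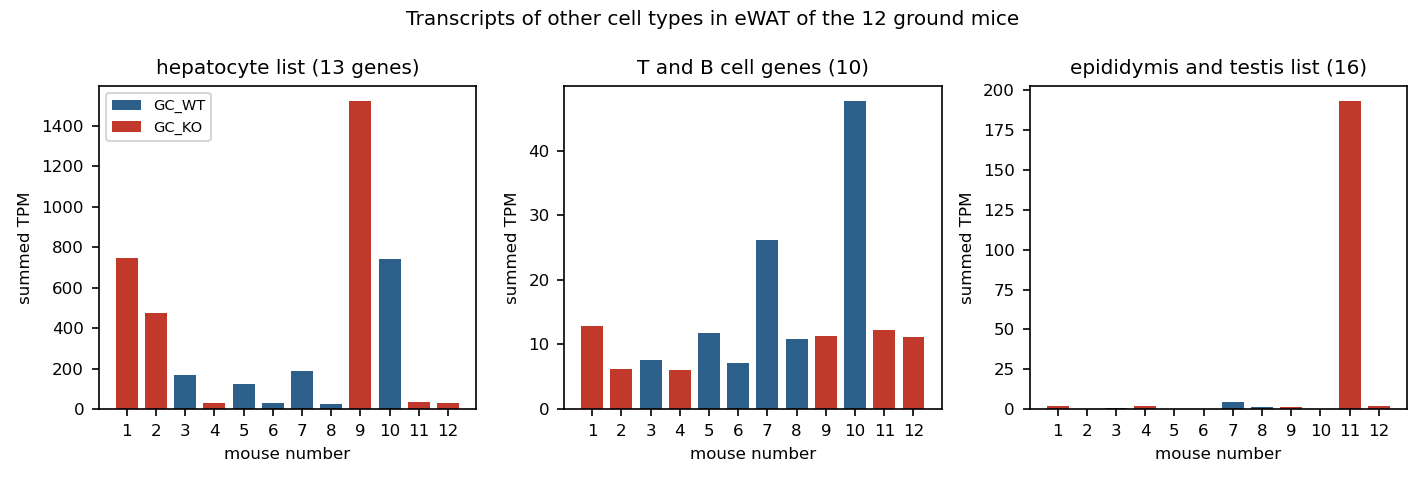
Summed TPM of a hepatocyte list, of T and B cell genes and of an epididymis and testis list (y axes, linear, from 0) in eWAT of each ground mouse (x axes, mouse number), with 1 bar per library coloured by genotype. Hepatocyte transcripts were highest in GC_KO mice 9, 1 and 2 and GC_WT mouse 10, T and B cell transcripts in GC_WT mice 10 and 7, and epididymis and testis transcripts in GC_KO mouse 11.

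Mice 1 to 6 also differed from mice 7 to 12. Dbp, a clock output gene, was between 54.1 and 129 TPM in mice 1 to 6 and between 16.8 and 23.4 TPM in mice 7 to 12. Arntl, which encodes the clock activator BMAL1, was at 0.92 to 5.06 TPM in mice 1 to 6 and 17.2 to 30.6 TPM in mice 7 to 12. Each set of numbers held 3 GC_KO and 3 GC_WT mice, so the split does not coincide with genotype, and of 21 circadian clock genes none was called between genotypes by edgeR or DESeq2, with 1 below 0.05 before adjustment.

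Nfe2l2 (chr2:75675513-75704641) was checked first. Its level was lowest at 25.8, median 33.6 and highest 40.8 TPM in GC_KO, against 58.1, 75.9 and 87.9 TPM in GC_WT. Every GC_KO mouse was below every GC_WT mouse, so no library went against its label. The log2 fold change was -1.27 ± 0.0859 (SE, adjusted p = 1.17e-09, edgeR's quasi-likelihood test), so 41.5% of the WT level remained. The fold was -1.49 in mice 1 to 6 and -1.04 in mice 7 to 12. The allele replaces the part of the gene that encodes the DNA-binding region with a reporter, so reads from the rest of the transcript can still be counted, and the values deposited per gene do not show which exons they came from.

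Of 15317 genes tested in eWAT, 419 were called at an adjusted p under 0.05, which is 2.74% of those tested. In GC_KO, 203 were higher (1.33%) and 216 lower (1.41%). The median log2 fold change was 0.896 among the genes called higher and -0.512 among those called lower, and 0.00184 over all genes tested. Of the called genes, 135 differed by at least 1 on the log2 scale, with 89 higher and 46 lower, and 377 were protein coding. The TPM of the 6 GC_KO and 6 GC_WT mice did not overlap for 159 of the called genes, 88 higher and 71 lower. Of all tested genes 1.7% did not overlap, 1.21% with GC_KO higher and 0.496% with GC_KO lower. On TPM the split was less even, since limma on log2(TPM + 1) called 222 higher and 96 lower, and its log2 fold changes were at the median 0.0965 higher than those of edgeR. Leaving out the 4 libraries rich in hepatocyte transcripts, which left 3 GC_KO and 5 GC_WT mice, gave 147 calls, 74 higher and 73 lower. Leaving out single mice moved the count to 245 without GC_WT mouse 3, 275 without GC_WT mouse 7 and 270 without GC_KO mouse 9 or mouse 11. Of 81 called genes that are named by the rule used here, 28 lost the call without at least 1 of the 12 mice, 38 kept it without the hepatocyte-rich libraries, and 52 kept it with only the ground groups in the fit. Of these 81, 78 could be tested separately in mice 1 to 6 and in mice 7 to 12, and all 78 had the same sign in both. These genes were called on the same 12 mice, so agreement of sign was favoured by the choice and is not a replication.

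Glutathione transferases, which attach glutathione to electrophiles, held the largest share of called members among the Nrf2-related lists. Of 20 tested, 7 were lower in GC_KO, 1 was higher and 12 did not pass the test (40.0% called, against 2.74% of all genes), and the median log2 fold change was -0.171. Gsta3, an alpha class enzyme, was at 108 TPM in the lowest, 159.2 in the median and 180 in the highest GC_KO mouse, and at 391.5, 446.9 and 503.7 TPM in GC_WT. The groups were far apart, and the log2 fold change was -1.70 ± 0.171 (adjusted p = 8.69e-07). Gstm1, a mu class enzyme abundant in many tissues, ranged from 346.9 over a median of 371.8 to 441.1 TPM in GC_KO and from 674.4 over 788.3 to 852.3 TPM in GC_WT. Again no mouse of one group reached the other, with a log2 fold change of -1.13 ± 0.0963 (adjusted p = 5.04e-08). Mgst1, a microsomal enzyme of the endoplasmic reticulum and outer mitochondrial membrane, was among the most abundant transcripts of the list, at 1467, 1651 and 1755 TPM in GC_KO and 1908, 2470 and 2727 TPM in GC_WT (log2 fold change -0.63 ± 0.104, adjusted p = 0.000892). Gsta4, which handles the lipid peroxidation product 4-hydroxynonenal, fell by 0.58 on the log2 scale, Gstm2 by 0.49, Gsto1 by 0.42 and Gstp1 by 0.27. Gsto2, an omega class enzyme, went the other way, at 3.88 to 5.78 TPM in GC_KO and 1.51 to 2.79 TPM in GC_WT without overlap (log2 fold change 1.20 ± 0.206, adjusted p = 0.00131). Without the 4 hepatocyte-rich libraries 2 members stayed called lower and 1 higher, and the median was -0.149. Mu class genes are close paralogs, and RSEM splits reads that map to several of them.

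The enzymes that make and reduce glutathione and thioredoxin had smaller fold changes. Of 36 tested, 5 were lower in GC_KO and none was higher (13.9% called, against 2.74% of all genes), with a median log2 fold change of -0.125. Gclc, the catalytic subunit of the rate-limiting enzyme of glutathione synthesis, was at 14.1, 18.2 and 19.2 TPM in GC_KO (lowest, median, highest) and 17.8, 21.5 and 25.6 TPM in GC_WT, and 2 of the 6 GC_KO mice were below the lowest GC_WT mouse, the others within the GC_WT range (log2 fold change -0.43 ± 0.064, adjusted p = 0.000256). Its modifier subunit Gclm fell by 0.28. Gpx1, the main cytosolic glutathione peroxidase, was at 1365 to 1764 TPM in GC_KO and 1775 to 2462 TPM in GC_WT (log2 fold change -0.45 ± 0.105, adjusted p = 0.0207). Gsr, which regenerates reduced glutathione, fell by 0.29, and Txnrd1, which reduces cytosolic thioredoxin, fell by 0.32 on the log2 scale. Several further members that are often named as Nrf2 targets were chosen after their values were seen and did not pass. Prdx1, a peroxiredoxin, had a log2 fold change of -0.29 (adjusted p = 0.0648), Txn1 of -0.28 (adjusted p = 0.152) and Srxn1, which repairs overoxidized peroxiredoxins, of -0.20 (adjusted p = 0.203). Slc7a11, the cystine importer, was close to 0 in both groups, with means of 0.07 TPM in GC_KO and 0.062 TPM in GC_WT. The call of Gpx1 was lost without GC_KO mouse 1, 9 or 11 or GC_WT mouse 8 (highest adjusted p 0.0627, without the last). That of Txnrd1 was lost without GC_KO mouse 1, 2, 9, 11 or 12 or GC_WT mouse 3, 7 or 8 (highest 0.0903, without GC_WT mouse 3), and without the 4 hepatocyte-rich libraries only 1 member of the list was called.

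**Figure D2:**
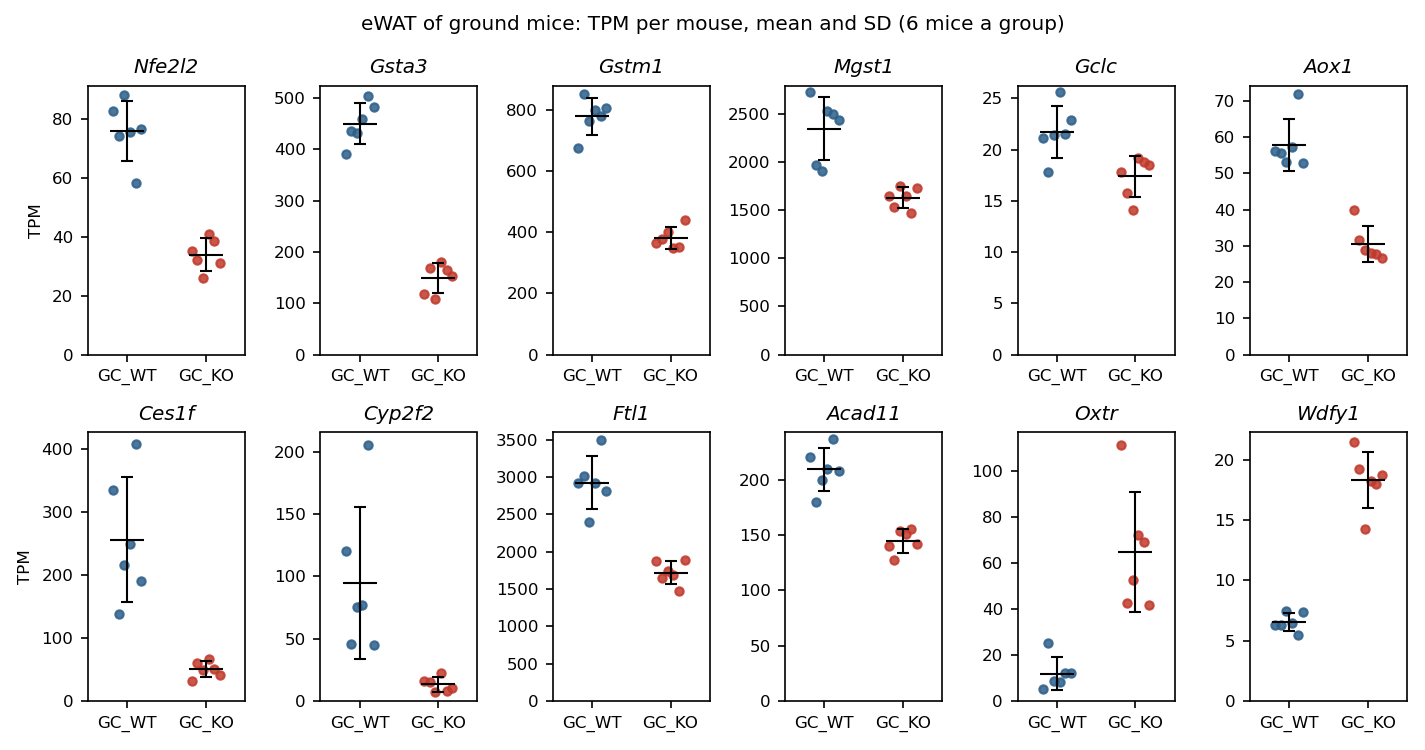
TPM per mouse (y axes, linear, from 0) of Nfe2l2, of genes for glutathione, oxidation, hydrolysis, iron storage and fatty acid oxidation, and of Oxtr and Wdfy1 in eWAT of 6 GC_WT and 6 GC_KO ground mice (x axes). Each point is 1 mouse, and the horizontal line and bar give mean and SD. The groups overlap only for Gclc among the genes drawn. Oxtr and Wdfy1 lie higher in GC_KO.

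Oxidoreductases and hydrolases of detoxification showed some of the larger falls. Of 36 tested, 9 were lower in GC_KO, 1 was higher and 26 did not pass (27.8% called, against 2.74% of all genes). The median log2 fold change was -0.116. Aox1, an aldehyde oxidase, was at 26.7, 28.6 and 39.9 TPM in GC_KO and 52.8, 55.9 and 71.8 TPM in GC_WT. The groups did not overlap, and the log2 fold change was -1.03 ± 0.106 (adjusted p = 1.19e-06). Ces1f, a carboxylesterase, was at 31.9, 50.4 and 67.2 TPM in GC_KO and 138.5, 232.2 and 407.1 TPM in GC_WT, a log2 fold change of -2.46 ± 0.261 (adjusted p = 1.8e-06). Its paralog Ces1d, a triglyceride hydrolase of adipocytes, fell by 0.64. Htatip2, a short-chain dehydrogenase fold protein, was at 29.6, 33.6 and 38.1 TPM in GC_KO and 41.3, 49.4 and 73.9 TPM in GC_WT (log2 fold change -0.75 ± 0.115, adjusted p = 0.000404). The epoxide hydrolase Ephx2 fell by 0.67 and the aldehyde dehydrogenases Aldh2, Aldh9a1 and Aldh7a1 by 0.40, 0.32 and 0.29. Nqo1, the quinone reductase most often used as a reporter of Nrf2 activity, was expressed at a low level here, at 2.65, 3.29 and 4.71 TPM in GC_KO and 3.86, 4.82 and 7.18 TPM in GC_WT. The groups overlapped, and its log2 fold change of -0.65 ± 0.175 passed narrowly (adjusted p = 0.0465), a call kept under 11 of 35 alternatives. It was lost without GC_KO mouse 4, 9, 11 or 12 or GC_WT mouse 3, 5, 7 or 8 (highest adjusted p 0.113, without GC_KO mouse 9). Akr1c12, an aldo-keto reductase, was the only member called higher, at 1.47 to 4.63 TPM in GC_KO against 0.67 to 2.2 TPM in GC_WT (log2 fold change 1.07 ± 0.282, adjusted p = 0.0428). Its call was lost without GC_KO mouse 1, 2 or 9 or GC_WT mouse 3, 5, 6, 7 or 8 (highest 0.118, without GC_KO mouse 1), as well as without either of 2 flight mice, and that of Aldh7a1 without GC_WT mouse 3 or 8 (highest 0.0539, without mouse 8). Without the hepatocyte-rich libraries 4 members were called lower and none higher.

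Among genes for conjugation and efflux, 3 of 19 tested were lower and none higher (15.8% called, against 2.74% of all genes), with a median log2 fold change of -0.126. These were the glucuronosyltransferases Ugt1a6a (-0.58, adjusted p = 0.00466) and Ugt1a6b (-0.51, adjusted p = 0.00997), which share exons so that their reads cannot be fully separated, and the efflux pump Abcc4 (-0.47, adjusted p = 0.029), the last lost without GC_KO mouse 2, 9, 11 or 12 or GC_WT mouse 3, 5, 6 or 7 (highest 0.0772, without GC_WT mouse 6). None of the 3 was called without the hepatocyte-rich libraries. In the haem and iron list, 2 of 24 were lower (8.33% called). Ftl1, the ferritin light chain that stores iron, was at 1475, 1720 and 1883 TPM in GC_KO and 2395, 2917 and 3494 TPM in GC_WT. No GC_KO mouse reached the lowest GC_WT mouse, and the log2 fold change was -0.89 ± 0.0803 (adjusted p = 1.2e-07). The ferritin light chain has processed copies in the genome, so part of this value may be shared with them. Slc40a1, the iron exporter ferroportin, had a log2 fold change of -0.96 ± 0.248 (adjusted p = 0.0377), a call lost without GC_KO mouse 1, 4, 11 or 12 or GC_WT mouse 3, 5, 8 or 10 (highest 0.0832, without GC_KO mouse 11). Hmox1, haem oxygenase 1, was named after its values were seen and had means of 36.4 TPM in GC_KO and 37.3 TPM in GC_WT (log2 fold change -0.15, adjusted p = 0.746).

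Among the 17 regulators of the pathway, Mafg was called lower besides Nfe2l2 itself (11.8% called, against 2.74% of all genes). Mafg, a small Maf partner of Nrf2, was at 31.9, 35.6 and 41.5 TPM in GC_KO and 41.0, 44.5 and 47.9 TPM in GC_WT, with a slight overlap (log2 fold change -0.44 ± 0.0553, adjusted p = 2.54e-05). Keap1, the adaptor that targets Nrf2 for degradation, had a log2 fold change of -0.04 (adjusted p = 0.757) and Bach1, a repressor at the same elements, of -0.04 (adjusted p = 0.915). In the NADPH and pentose phosphate list 29.4% of 17 entries were called. Of these, 2 were lower, Rpe (-0.38, adjusted p = 0.00771) and Me2 (-0.38, adjusted p = 0.0171). The 3 higher were both entries of 1 gene, Nnt, and Mthfd2, a mitochondrial folate enzyme (0.58, adjusted p = 0.0316). The call of Me2 was lost without GC_WT mouse 8 (0.0549) and that of Mthfd2 without GC_KO mouse 1, 9 or 11 or GC_WT mouse 3, 5, 6, 7 or 10 (highest 0.0886, without GC_KO mouse 1). G6pdx, the entry enzyme of the pentose phosphate pathway, had a log2 fold change of -0.17 (adjusted p = 0.433), Pgd of 0.00 (adjusted p = 0.995), Taldo1 of -0.20 (adjusted p = 0.334) and Me1, malic enzyme, of -0.32 (adjusted p = 0.327). Of 46 proteasome genes, none was called by edgeR or by DESeq2, 3 had a p below 0.05 before adjustment, and the median log2 fold change was -0.009.

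**Figure D3:**
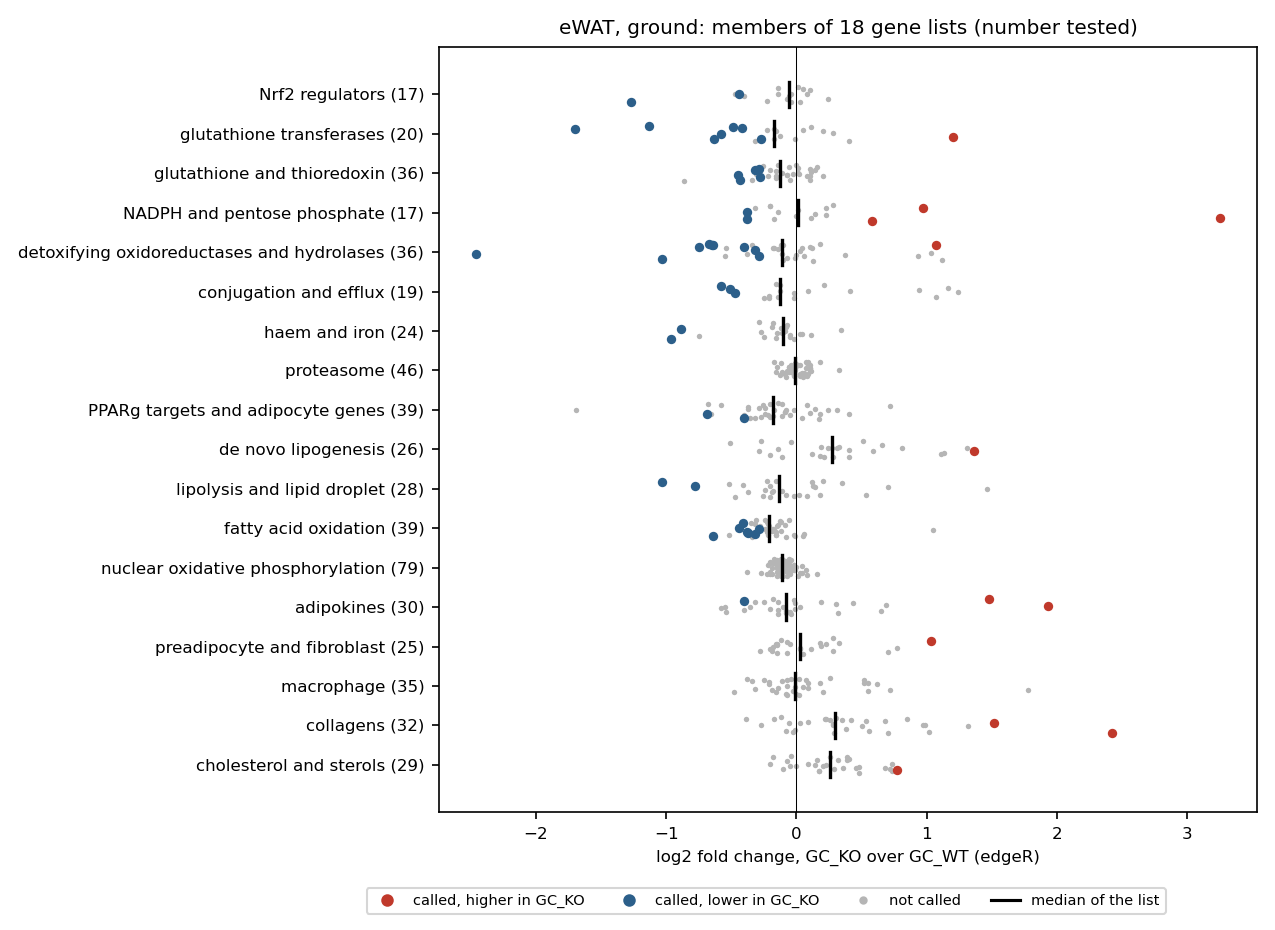
Log2 fold change of GC_KO over GC_WT in ground eWAT (x axis, edgeR) for the tested members of gene lists (rows, with the number tested), where each point is 1 gene, coloured if called, and the black line is the median of the list. Glutathione transferases, glutathione and thioredoxin genes, detoxifying enzymes and fatty acid oxidation genes hold most of the points called lower, with 7, 5, 9 and 7 genes.

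Beyond these lists, the largest falls among called genes with a mean of at least 5 TPM and no overlap between groups included a cytochrome P450 and a ferritin copy. Ftl1-ps1, a processed copy of the ferritin light chain, was at 5.02, 7.48 and 12.2 TPM in GC_KO and 52.6, 60.0 and 83.5 TPM in GC_WT (log2 fold change -3.04 ± 0.221, adjusted p = 3.02e-09), with the same uncertainty of shared reads as Ftl1. Cyp2f2, which oxidizes naphthalene in airway and liver, was at 6.91, 13 and 22.8 TPM in GC_KO and 44.7, 76.3 and 205.6 TPM in GC_WT. The lowest GC_WT mouse was above the highest GC_KO mouse, with a log2 fold change of -2.98 ± 0.413 (adjusted p = 8.97e-05). Cyp2f2 was the only one of 43 tested cytochrome P450 genes that was called (2.33%, against 2.74% of all genes). Cd59a, which protects cells from complement lysis, was at 40.3 to 43.2 TPM in GC_KO and 96.6 to 134.8 TPM in GC_WT (log2 fold change -1.54 ± 0.105, adjusted p = 1.17e-09). Pcsk6, a proprotein convertase, fell by 1.29 and Capza1, an actin-capping subunit, by 1.24 on the log2 scale, both without overlap, with adjusted p of 8.69e-07 and 7.94e-10. Ldb3, a protein of the muscle Z-disc, fell by 1.38 at levels of 2.06 to 4.76 TPM in GC_KO and 4.96 to 12.4 TPM in GC_WT. Tmem267 (chr13:119488039-119611059), which lies close to Nnt, fell by 1.72 (adjusted p = 4.78e-06).

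The largest rises by the same rule held both coding genes and poorly studied transcripts. Oxtr, the oxytocin receptor, was at 42.0, 60.8 and 111.6 TPM in GC_KO and 5.26, 10.4 and 25.4 TPM in GC_WT. All 6 GC_KO mice exceeded all 6 GC_WT mice, and the log2 fold change was 2.31 ± 0.311 (adjusted p = 6.67e-05). It was 2.27 in mice 1 to 6 and 2.36 in mice 7 to 12. Vstm2b, an immunoglobulin domain protein, was at 24.7, 30.7 and 36.5 TPM in GC_KO and 2.32, 4.18 and 5.16 TPM in GC_WT (log2 fold change 2.86 ± 0.189, adjusted p = 9.44e-10). Wdfy1, a phosphoinositide-binding protein of endosomes, was at 14.2, 18.5 and 21.5 TPM in GC_KO and 5.51, 6.36 and 7.47 TPM in GC_WT. It had the smallest adjusted p of all genes (log2 fold change 1.52 ± 0.0684, adjusted p = 1.39e-12). Col6a5, a collagen VI chain, was variable among GC_KO mice, from 8.31 to 81.1 TPM with a median of 23.2, against 3.09 to 8.23 TPM in GC_WT (log2 fold change 2.42 ± 0.503, adjusted p = 0.00874). Kcnj14, an inward rectifier potassium channel, had a log2 fold change of 2.33 (adjusted p = 0.000155).

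Nnt, the mitochondrial transhydrogenase that makes NADPH from NADH, stands in the annotation as a pair of overlapping entries on chromosome 13. Added together they gave 30.4, 36.1 and 39.1 TPM in GC_KO and 10.3, 12.4 and 14.2 TPM in GC_WT. One entry rose by a log2 fold change of 3.25 ± 0.754 (adjusted p = 0.0197) and the other by 0.97 ± 0.143 (adjusted p = 0.000236), and reads shared between them cannot be assigned with certainty. The C57BL/6J substrain is known to carry a deletion in Nnt that other C57BL/6 substrains lack. The labels name the strain of both groups as C57BL/6, the methods of the study give a C57BL/6J background for both, and whether the groups differ in substrain was not tested. The pseudogene entries Gm7868 and Gm3608 were nearly silent in GC_WT. Gm7868 summed to 347.1 counts over the 6 GC_KO libraries and to 6.17 counts over the 6 GC_WT libraries, 4 of which were at 0. Gm3608 was at 23.3 to 36.2 TPM in GC_KO and 0 to 2.26 TPM in GC_WT (log2 fold change 4.41 ± 0.3, adjusted p = 1.17e-09). Ftl2-ps, a ferritin light chain copy, rose by 2.36 (adjusted p = 0.0192) while Ftl1 and Ftl1-ps1 fell. The transcript 1500015A07Rik was at 13.1 to 16.6 TPM in GC_KO and 1.85 to 2.76 TPM in GC_WT (log2 fold change of counts 1.49 ± 0.124, adjusted p = 3.92e-08). By limma on log2(TPM + 1) its log2 fold change was 2.26, so counts and TPM differ in size here, and the reason was not tested.

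Fatty acid oxidation was the metabolic list with the most calls. Of 39 tested, 7 were lower in GC_KO and none higher (17.9% called, against 2.74% of all genes). Of the 39, 36 had a log2 fold change under 0, and the median was -0.214. Acad11, an acyl-CoA dehydrogenase for long-chain substrates, was at 127.2, 146.5 and 155.2 TPM in GC_KO and 180.4, 209.0 and 237.3 TPM in GC_WT. The groups did not overlap, and the log2 fold change was -0.64 ± 0.101 (adjusted p = 0.000571). Acadl, the long-chain acyl-CoA dehydrogenase, was at 178.6 to 247.4 TPM in GC_KO and 253.4 to 271.1 TPM in GC_WT, also without overlap (log2 fold change -0.41 ± 0.0808, adjusted p = 0.00499). Cpt2, which reforms acyl-CoA inside the mitochondrion, fell by 0.44, Eci1 by 0.38, the peroxisomal enzyme Hsd17b4 by 0.37, and Oxct1, which activates ketone bodies, by 0.29, a call lost without GC_KO mouse 1, 9 or 11 or GC_WT mouse 8 (highest adjusted p 0.0786, without GC_WT mouse 8). Leaving out 1 ground mouse at a time gave 3 to 10 members called lower, limma on log2(TPM + 1) 3, and leaving out the hepatocyte-rich libraries 1, with medians of -0.113 and -0.245 in the last pair. None of 79 nuclear genes of oxidative phosphorylation was called by edgeR, while 11 had a p below 0.05 before adjustment and DESeq2 called 1. Their median log2 fold change was -0.113, and it was -0.00985 on TPM.

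Of 39 PPARg targets and adipocyte genes, 2 were lower in GC_KO and none higher (5.13% called, against 2.74% of all genes), with a median log2 fold change of -0.176. The number called lower was 5 with DESeq2, 6 with mouse numbers 1 to 6 against 7 to 12 as a term, 0 with only the ground groups or without the hepatocyte-rich libraries, and 0 to 5 when 1 ground mouse was left out. Slc27a1, a fatty acid transporter, was at 267.3, 350.2 and 474.6 TPM in GC_KO and 401.1, 547.2 and 723.5 TPM in GC_WT, with overlap (log2 fold change -0.69 ± 0.158, adjusted p = 0.018). Adipoq, encoding adiponectin, was at 3512, 4007 and 4592 TPM in GC_KO and 4457, 4888 and 5804 TPM in GC_WT. Its ranges just overlapped, and the call (log2 fold change -0.40 ± 0.107, adjusted p = 0.046) was kept under 11 of 35 alternatives and lost without GC_KO mouse 1, 2, 9, 11 or 12 or GC_WT mouse 3, 6, 7 or 8 (highest adjusted p 0.126, without GC_WT mouse 8). That of Slc27a1 was lost without GC_KO mouse 9 or GC_WT mouse 3 (highest 0.0588, without the latter). Neither gene was called with only the ground groups in the fit. In the lipolysis and lipid droplet list 2 of 28 were lower (7.14% called), both receptors that restrain lipolysis. Hcar1, the lactate receptor, was at 46.6, 62.4 and 71.3 TPM in GC_KO and 78.4, 114.1 and 154.4 TPM in GC_WT without overlap (log2 fold change -1.03 ± 0.191, adjusted p = 0.00338). Hcar2, the receptor for beta-hydroxybutyrate and niacin, fell by 0.78 (adjusted p = 0.0362), lost without GC_KO mouse 1, 9, 11 or 12 or GC_WT mouse 3, 6, 7 or 8 (highest 0.112, without GC_WT mouse 3). Pnpla2, the first lipase of triglyceride breakdown, had a log2 fold change of -0.37 (adjusted p = 0.0963) and Lipe, hormone-sensitive lipase, of -0.08 (adjusted p = 0.818).

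De novo lipogenesis and sterol synthesis had medians above 0. Of 26 lipogenesis genes 1 was higher and none lower (3.85% called, near the 2.74% of all genes). Of the 26, 19 had a log2 fold change above 0, and the median was 0.278. DESeq2 called 5 higher and 1 lower, the fit with only the ground groups none, and leaving out 1 ground mouse gave 0 to 4 higher. Elovl6, which elongates palmitate, was at 8.49, 21.4 and 50.8 TPM in GC_KO and 4.79, 8.17 and 14.3 TPM in GC_WT, with overlap (log2 fold change 1.36 ± 0.306, adjusted p = 0.0165). Without GC_KO mouse 11, the highest, its adjusted p was 0.0527. Acly, ATP citrate lyase, had a log2 fold change of 1.13 (adjusted p = 0.056) and Fasn, fatty acid synthase, of 0.66 (adjusted p = 0.271). The median over 29 cholesterol and sterol genes was 0.261. Of 28 insulin and glucose genes 10.7% were called. Pygl, liver glycogen phosphorylase, was higher at 189.1 to 264.6 TPM against 139.3 to 176.0 TPM without overlap (log2 fold change 0.42, adjusted p = 0.016). Grb10 and Tbc1d4, which act in insulin signalling, fell by 0.33 and 0.31. The call of Grb10 was lost without GC_KO mouse 4, 9 or 11 or GC_WT mouse 3, 5 or 7 (highest 0.0815, without GC_KO mouse 9) and that of Tbc1d4 without GC_KO mouse 1, 9, 11 or 12 or GC_WT mouse 3, 6, 7 or 8 or any of 6 flight mice (highest 0.116, without GC_KO mouse 1). No gene of the thermogenic list was called among 17 by edgeR or DESeq2, and 3 had a p below 0.05 before adjustment. Ucp1, the uncoupling protein of brown and beige fat, stayed at a median of 0.765 TPM in GC_KO and 0.76 TPM in GC_WT.

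Of 30 adipokines, 2 were higher and 1, Adipoq, was lower, a share above the 2.74% called of all genes. With only the ground groups in the fit none was called, and without the hepatocyte-rich libraries 1 was higher. Lcn2, lipocalin 2, was at 4.14, 24.9 and 34.6 TPM in GC_KO and 2.37, 5.12 and 8.8 TPM in GC_WT, with 4 of the 6 GC_KO mice above the highest GC_WT mouse (log2 fold change 1.93 ± 0.431, adjusted p = 0.0157). Sfrp5, a secreted Wnt antagonist that is also on the adipogenesis list, was at 158.4, 176.9 and 304.7 TPM in GC_KO and 10.9, 67.2 and 159.5 TPM in GC_WT (log2 fold change 1.48 ± 0.375, adjusted p = 0.033), a call lost without GC_KO mouse 1 or 4 or GC_WT mouse 6, 7 or 8 (highest 0.0792, without GC_WT mouse 8). Sfrp5 was the only one of 29 adipogenesis regulators called by edgeR (3.45%, near the 2.74% of all genes), while DESeq2 called 4 higher. Leptin (Lep) had a log2 fold change of 0.43 (adjusted p = 0.302). Of 32 collagens (6.25% called), Col6a5 and Col17a1 were higher, the latter at under 1 TPM in all mice. None was lower, and the median was 0.297. DESeq2 called 6 collagens higher. Of 31 matrix genes (6.45% called), Tnc, encoding tenascin C, rose by 0.75 and the gelatinase Mmp9 fell by 0.78. Their adjusted p was up to 0.107 (without GC_KO mouse 1) and 0.1 (without GC_WT mouse 8), with calls lost without 7 single mice each. Of 25 preadipocyte and fibroblast genes (4.0% called), Clec11a, a secreted lectin, was higher (1.03, adjusted p = 0.0185), and its adjusted p was 0.05 without GC_KO mouse 1.

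Stress lists were mixed. In the integrated stress and unfolded protein response list, 4 of 28 were lower and 2 higher (21.4% called, against 2.74% of all genes). Phgdh, the first enzyme of serine synthesis, was at 308.5, 364.5 and 409.4 TPM in GC_KO and 459.1, 543.9 and 625.3 TPM in GC_WT without overlap (log2 fold change -0.68 ± 0.113, adjusted p = 0.000928). The chaperones Pdia4, Hsp90b1 and Dnajb9 were also lower, the first 2 with log2 fold changes of -0.33 and -0.32, while Mthfd2 and the amino acid transporter Slc7a5 (0.81, adjusted p = 0.0436) were higher. Of 19 heat shock genes (10.5% called), Hsp90ab1 fell by 0.45 and Hspa1b by 1.02, with a median of -0.327 over the list. Pdia4 lost its call without GC_WT mouse 3 (0.0579), Hsp90ab1 without GC_WT mouse 8 (0.0659), and Hsp90b1, Slc7a5 and Hspa1b without several single mice, flight mice included for the latter pair (highest 0.087, without GC_KO mouse 1, and 0.107 and 0.11, without GC_WT mouse 3). Neither heat shock gene was called by limma on log2(TPM + 1) or without the hepatocyte-rich libraries. Of 17 glucocorticoid and metallothionein genes (11.8% called), Lcn2 and Cdkn1c (0.67, adjusted p = 0.025) were higher. The call of Cdkn1c was lost without GC_KO mouse 1 or 2 or GC_WT mouse 3, 7 or 8 (highest 0.0599, without GC_WT mouse 8). The aryl hydrocarbon receptor list repeated Ugt1a6a and Nqo1 among 8 tested members (25.0% called).

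Immune lists held few calls. Of tested lymphocyte genes 4.55% and of chemokines 3.85% were called, near the 2.74% of all genes. Of the 22 lymphocyte genes, 17 had a log2 fold change under 0 and 5 above 0, and the median was -0.559. Foxp3, the master regulator of regulatory T cells, was the only one of 22 tested lymphocyte genes called, at 0.59, 1.23 and 1.91 TPM in GC_KO and 0.09, 0.2 and 0.4 TPM in GC_WT. The groups did not overlap, and the log2 fold change was 2.46 ± 0.423 (adjusted p = 0.00137) on 173.8 counts summed over GC_KO and 29.9 over GC_WT. Of 26 chemokines, Ccl12, a monocyte chemoattractant, was higher (2.02, adjusted p = 0.0204) at 2.21 to 5.71 TPM against 0.24 to 1.71 TPM, a call lost without GC_WT mouse 3 or 7 (highest 0.056, without mouse 3). Macrophage genes (35 tested), interferon response genes (30), MHC class II genes (9) and cytokines (21) had none called by edgeR, with 5, 4, 0 and 2 below 0.05 before adjustment and 2, 2, 0 and 0 called by DESeq2. Adgre1, encoding F4/80, was at a median of 14.41 TPM in GC_KO and 12.98 TPM in GC_WT.

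Of the 44 lists with tested members, 19 held no gene called by edgeR. Besides those above, these were the mitochondrially encoded, mesothelium, endothelium, mural, granulocyte and mast cell, p53, cell cycle, immediate early, erythroid, skeletal muscle and hepatocyte lists, with between 0 and 5 members below 0.05 before adjustment and between 0 and 1 called by DESeq2. The hepatocyte list had the largest median of all, 1.12 over 12 tested genes, with Alb from 14.9 to 613.3 TPM in GC_KO and from 12.4 to 253.6 TPM in GC_WT. Without the 4 hepatocyte-rich libraries its median was -3.82. Those libraries were chosen by the sum of this same list and 3 of them were GC_KO, so a fall of the median was built into the choice. The cytochrome P450 list, many members of which are hepatic, had a median of 0.883, which became -0.243 without those libraries, whereas Cyp2f2 stayed called (adjusted p = 0.0009). Of the 4 libraries with the highest summed hepatocyte level 3 were GC_KO. All 12 tested members had a log2 fold change above 0, and the median sum was 253 TPM in GC_KO and 148 TPM in GC_WT. The groups overlapped, with GC_KO mice 4, 11 and 12 at 27.6 to 33.3 TPM and GC_WT mice 3, 5 and 7 at 125 to 190 TPM. Whether this sum is tied to genotype was not tested. The part of hepatocyte transcripts in the other results was not tested beyond leaving the hepatocyte-rich libraries out. The epididymis and testis list had no member that passed the filter. Ly6g, the neutrophil marker, and Lcn5, an epididymal lipocalin, were at 0 in all 12 libraries.

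Genes near the knocked-out locus were counted separately. Within 10 Mb of Nfe2l2, 4 of 103 tested genes were called (3.88%), against 2.72% of 15213 genes elsewhere. Within 5 Mb it was 4 of 58 (6.9%) and within 20 Mb 7 of 185 (3.78%). E030042O20Rik (chr2:75704770-75710024), an entry that starts beside Nfe2l2 on the opposite strand, was at 0.09 to 0.53 TPM in GC_KO and 0.73 to 1.32 TPM in GC_WT (log2 fold change -1.73, adjusted p = 0.0162). Ccdc141 rose by 1.25, 2600014E21Rik by 1.87 and Rbm45 fell by 0.35 on the log2 scale, the middle one on 71 and 18 summed counts. The call of Rbm45 was lost without any of 10 ground mice or 8 flight mice taken singly (highest adjusted p 0.125, without GC_KO mouse 1).

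The genotype effect on the ground was then set beside that in 5 FL_KO and 6 FL_WT flown mice. Between these, 163 genes were called (1.06%), 62 higher (0.405%) and 101 lower (0.659%) in FL_KO. FL04, an FL_KO mouse, was left out as in most of the study's analyses, since the paper reports severe intestinal hemorrhage in it. The paper places the ground experiment at another site and later in the year, so flight cannot be told apart from site, date and return to Earth. The flight and ground effects were compared by an interaction term in the same fit. No gene passed by edgeR, where the smallest adjusted p was 0.309 and 1291 genes had an unadjusted p below 0.05. DESeq2 called 16 genes. Nfe2l2 had a log2 fold change of -1.22 in flight, Gsta3 of -1.89, Gstm1 of -0.79, Aox1 of -0.78, Ftl1 of -0.74, Wdfy1 of 1.57 and Vstm2b of 3.05, all with an adjusted p under 0.05 there. Oxtr was 0.65 in flight (adjusted p = 0.454), Cyp2f2 -0.79 (adjusted p = 0.681), Mgst1 -0.13 (adjusted p = 0.728) and Acad11 -0.09 (adjusted p = 0.825), but none of these differences between flight and ground passed the interaction test. Glb1l2, Rgs7 and Thrb, the thyroid hormone receptor beta, had the smallest interaction p among well-expressed genes. Thrb was at 8.29 to 12.9 TPM in GC_KO and 15.1 to 17.4 TPM in GC_WT without overlap (log2 fold change -0.67, adjusted p = 0.000176), and its log2 fold change in flight was 0.01.

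Interscapular brown fat (iBAT) and liver (Liv) of the same 12 ground mice showed where the effect in eWAT differed from other tissues. The difference was tested with the mouse as a block, and 22 of 14959 genes (0.147%) differed between eWAT and iBAT and 70 of 15412 (0.454%) between eWAT and Liv. The genotype contrast itself called 2.14% of genes in iBAT and 2.64% in Liv. Gsta3 fell more in eWAT (-1.70) than in Liv (-0.51), a difference of -1.19 (adjusted p = 0.0101). Gstm1 fell less in eWAT (-1.13) than in Liv (-2.27), a difference of 1.12 (adjusted p = 0.0124), and Gstm2 less in eWAT (-0.49) than in iBAT (-1.17), a difference of 0.69 (adjusted p = 0.0156). Aox1 likewise fell less than in Liv (-2.15), with a difference of 1.15 (adjusted p = 0.028), whereas Ces1f and Cyp2f2 fell more, by differences of -1.40 (adjusted p = 0.045) and -2.35 (adjusted p = 0.028). Nqo1 fell by 0.65 in eWAT and 2.05 in Liv, and the difference of 1.37 did not pass (adjusted p = 0.0997). Pcsk6 fell more in eWAT than in Liv by -0.98 (adjusted p = 0.0109) and Cd59a more than in iBAT by -0.66 (adjusted p = 0.0294).

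The smallest adjusted p between eWAT and Liv belonged to genes that fell in Liv and not in eWAT. Abcc3, an efflux pump for conjugates, was at 8.75 to 12.5 TPM in GC_KO eWAT and 6.98 to 11.3 TPM in GC_WT eWAT, with a log2 fold change of 0.09 there and of -2.72 in Liv (difference 2.84, adjusted p = 2.43e-05). As3mt, which methylates arsenic, rose by 0.73 in eWAT and fell by 1.73 in Liv (difference 2.44, adjusted p = 6.85e-05). Ephx1, microsomal epoxide hydrolase, was -0.18 in eWAT and -1.68 in Liv (difference 1.5, adjusted p = 0.000374). Vcpkmt, a lysine methyltransferase, rose by 1.22 in eWAT, 2.81 in iBAT and 2.83 in Liv, and both differences passed (adjusted p = 0.0156 and 0.000991). Slc7a8, an amino acid transporter, had a log2 fold change of 0.58 in eWAT (adjusted p = 0.17) and of -2.37 in iBAT (difference 2.93, adjusted p = 0.00355), and Plcl1 of -1.17 in eWAT and 0.11 in iBAT (difference -1.32, adjusted p = 0.0156). Wdfy1 rose in all 3 tissues, by 1.52 in eWAT, 1.84 in iBAT and 0.93 in Liv, and Capza1 fell by 1.24, 1.34 and 1.08. The count of genes that differed between eWAT and iBAT rested on few mice, since it was 2 without GC_WT mouse 6, GC_WT mouse 7 or GC_KO mouse 9, 3 without GC_KO mouse 4 or GC_WT mouse 3, 8 without GC_KO mouse 11 or GC_WT mouse 8 and 12 without GC_KO mouse 12 or GC_WT mouse 5. The count between eWAT and Liv was 38 without GC_WT mouse 6, 40 without GC_KO mouse 11 and 44 without GC_WT mouse 7.

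**Figure D4:**
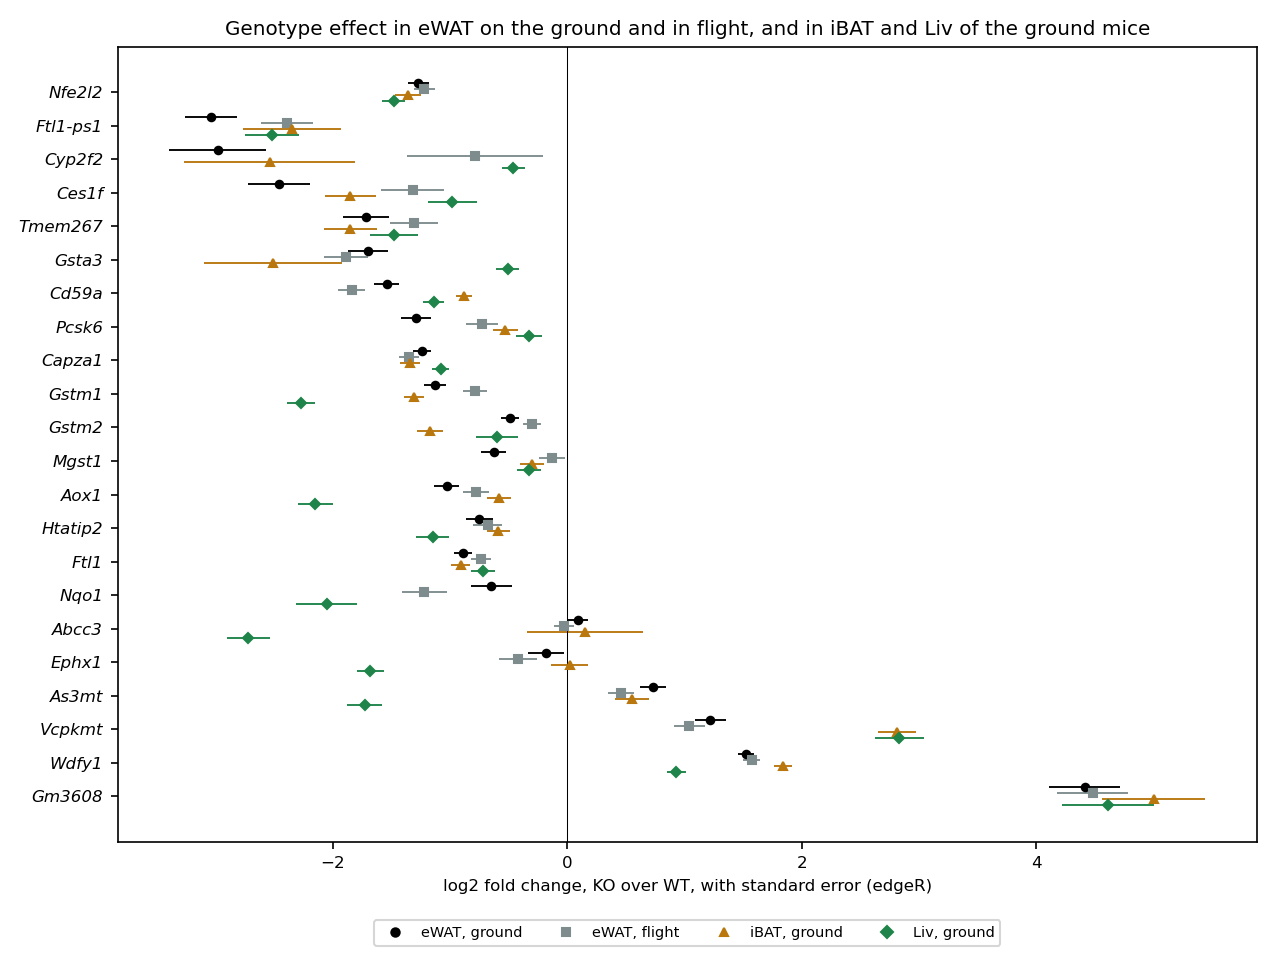
Log2 fold change of KO over WT with its standard error (x axis, edgeR) for named genes (rows) in eWAT on the ground, eWAT in flight, and iBAT and Liv of the ground mice, each with its own symbol. Nfe2l2, Capza1 and Ftl1 lie close together in all 4, while Gsta3, Gstm1, Aox1, Abcc3, Ephx1 and As3mt in Liv lie apart from eWAT. A missing symbol means that the gene was not tested there.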

How the data were processed

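Poly(A) RNA was sequenced from strand-specific libraries, and the authors mapped single reads to mm10 with STAR 2.6.1 and quantified genes with RSEM 1.3.1. The deposited expected counts are RSEM estimates per gene without normalization, and divide a read with several matching genes among them. The deposited TPM values are RSEM's length-corrected levels. The deposited FPKM columns were not used. The strand setting of the counting is not given in the sources used here, so genes overlapping on opposite strands can share reads. Positions are GRCm38, from a GENCODE annotation that matched 99.95% of the identifiers.

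Expected counts were rounded and analysed in R 4.3.3 with edgeR 4.0.16 (filterByExpr, TMM, quasi-likelihood test). The 4 eWAT groups, without FL04, were in 1 fit of 23 libraries with 19 residual degrees of freedom, so that the groups share 1 estimate of the spread. Genes with a Benjamini-Hochberg adjusted p under 0.05 over all genes tested were called. Errors of log2 fold changes were taken from the F statistic. Tissue differences were fitted with the mouse as a block, since the same animals gave all tissues. The motif search used RefSeq promoter windows, and ranges are over 6 mice a group.

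The alternatives tried were DESeq2 1.42.0, RLE factors, FL04 included, no filter on genes of low counts, only the ground groups, limma 3.58.1 on log2(TPM + 1) and log2(TPM + 0.1) where at least 1 group had a mean of 5 TPM or more, tests against a log2 change of 0.5, and each library left out. After the data were seen, fits without 4 hepatocyte-rich libraries, with mouse numbers 1 to 6 against 7 to 12 as a term, and within each of these sets were added. The scripts were tested on simulated counts. Genes were named by a rule that took Nfe2l2, the 10 largest rises and falls without overlap and a mean of at least 5 TPM, up to 4 called members of each of 45 lists plus up to 2 called against their direction, up to 3 genes per comparison of effects, and up to 6 called genes near Nfe2l2. Some genes outside the rule are also named, and only part of them are marked in the text as chosen after their values were seen. Those not marked include Keap1, Bach1, G6pdx, Pgd, Taldo1, Me1, Pnpla2, Lipe, Acly, Fasn and Lep. Their values were likewise known when they were named. Every other member is counted in a list. The members and lists were chosen with earlier results of these data known. Apart from the sampling error of counts, p-values measure the spread between these mice. The results of some genes are not reported here.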

Additional observations from a re-analysis of the deposited data

Results flagged for a closer look

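Single mice that stood far from the other 5 of their group were looked for among 244 groups of named genes, and 12 were found by Dixon's criterion, which chance meets in about 1 group in 20. The number found was about what that rate gives. Among GC_WT mice, Oxtr was 25.41 TPM in mouse 5 against 12.04 in the next, one Nnt entry was lowest at 6.71 TPM in mouse 5, and mouse 8 was highest for Aox1 (71.82 TPM), Htatip2 (73.86 TPM) and Glb1l2 (313.0 TPM). GC_WT mouse 10 was highest for the liver transcripts Alb (253.6 TPM) and Apoa1 (77.6 TPM) and for Rbm45 (23.16 TPM). Among GC_KO mice, Aox1 was 39.88 TPM in mouse 1, Elovl6 50.76 TPM in mouse 11, Ucp1 4.73 TPM in mouse 2, and Tbc1d4 was lowest at 27.29 TPM in mouse 12. Without the mouse that stood apart, the call was lost for Elovl6 (adjusted p = 0.0527 by edgeR, without GC_KO mouse 11), Tbc1d4 (0.0777, without GC_KO mouse 12) and Rbm45 (0.103, without GC_WT mouse 10), and for none of Oxtr, Nnt, Aox1, Htatip2 and Glb1l2.

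Named genes whose genotype effect in eWAT differed from that in another tissue of the same mice are given as the difference of log2 fold changes, eWAT minus the other tissue, all at an adjusted p under 0.05 by edgeR with the mouse as a block. Against Liv the difference was 2.84 for Abcc3, 2.44 for As3mt, 1.5 for Ephx1, 1.32 for Ccdc141, 1.15 for Aox1, 1.12 for Gstm1, 0.808 for Pygl and 0.593 for Wdfy1. It was -2.35 for Cyp2f2, -1.74 for 1500015A07Rik, -1.62 for Vcpkmt, -1.40 for Ces1f, -1.19 for Gsta3, -0.978 for Pcsk6 and -0.543 for Thrb. Against iBAT it was 2.93 for Slc7a8, 0.692 for Gstm2, -0.507 for Rpe, -0.655 for Cd59a, -1.04 for Rgs7, -1.32 for Plcl1 and -1.61 for Vcpkmt.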

How the results depend on the processing

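Nfe2l2 was called lower in GC_KO under all 35 alternatives, with log2 fold changes from -1.49 to -1.04. The 81 called genes named here kept their direction under all alternatives run, which their choice by the main fit on the same mice favoured. Genes and list medians that were not called did not always: without the hepatocyte-rich libraries the hepatocyte median went from 1.12 to -3.82, that of cytochromes P450 from 0.883 to -0.243, and the log2 fold changes of Alb from 1.22 to -1.12 and of Apoa1 from 1.03 to -4.14, and the proteasome median went from -0.009 to 0.0949 with limma. Because the hepatocyte list chose these libraries, a fall of its median and of Alb and Apoa1 was built into that setting. The count of 419 called genes became 690 with DESeq2 (363 higher, 327 lower), 688 with mouse numbers 1 to 6 against 7 to 12 as a term, 179 with only the ground groups, 147 without the hepatocyte-rich libraries, 61 against a log2 change of 0.5, 135 at a log2 change of at least 1, and 41 and 88 within mice 1 to 6 and 7 to 12. Of these, 147, 41 and 88 come from fewer ground mice and 61 and 135 from a stricter criterion. The 179 come from all ground mice, without the flight libraries that share the estimate of the spread in the main fit. The cause of the other changes was not tested. Leaving out 1 library gave 245 to 499. Of the 419 genes, 417 were also called by DESeq2, 412 with RLE factors, 295 without a filter, 208 by limma and 166 with only the ground groups. Of the genes called by limma on log2(TPM + 1), 69.8% were higher, against 48.4% by edgeR. Of 81 called named genes DESeq2 kept 80 and limma 54 of the 72 it tested.

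The interaction with flight called 0 genes, 16 with DESeq2 and 0 to 1 when 1 library was left out (1 without GC_WT mouse 5). No paired analysis was possible because GC_KO and GC_WT mice share no number. Flight and ground mice share numbers but are different animals, and the correlation of their deviations was between -0.172 and 0.404. Mice of different numbers were not compared in this way, so these values do not decide whether a number carries a shared effect. With the mouse number as a replicate block the interaction called 1 gene. Between eWAT and iBAT 22 genes became 105 with DESeq2, 35 with limma, 35 without a filter, 23 with no replicate block and 2 to 24 leaving out 1 mouse. Between eWAT and Liv 70 became 164 with DESeq2, 84 with no replicate block and 38 to 70 leaving out 1 mouse. Genes that were not called were compared across settings by their call alone. At this depth levels under 1 TPM rest on few counts.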
